A study of Mus musculus with 6 samples.

Results

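The 39 probes described here are the gene probes that Agilent printed 10 times on each Arraystar Mouse LncRNA V4 array and whose names begin with A_51_P, with 11 of the 50 probes of that kind left out because their genes are treated elsewhere. They were taken by probe name and gene, not by any measured value, out of 60823 probes in all. A RefSeq accession named the gene of 35 of them, and 4 carry an accession that was not matched to a name (ENSMUST00000133268.8, ENSMUST00000232505.1, ENSMUST00000115991.3 and AK004226). The arrays measured total RNA of small extracellular vesicles (sEVs) shed by minced fat pads of C57BL/6 male mice during 2 days of culture, without any treatment. Brown fat came from the interscapular region (sEV-BAT, 3 arrays) and white fat from the inguinal region (sEV-WAT, 3 arrays), and the mice were 6 to 8 weeks old by the sample labels and 6 weeks old by the methods. By the methods each replicate pooled 10 mice out of 30, so pools of sEV-BAT and sEV-WAT may hold fat of the same animals. A fat pad holds blood vessel, immune and stromal cells beside adipocytes, and more vesicles from a cell type cannot be told apart here from more RNA in each vesicle.

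Brown fat burns fatty acids and glucose to make heat, whereas white fat stores energy as triglyceride. Both shed sEVs, membrane-bound particles that carry proteins, lipids and RNA of the cell of origin. An array probe is a short DNA strand fixed to glass that captures the labelled copy of its target, and its brightness grows with the amount of target but also depends on the probe's own sequence. Brightness can therefore be compared between arrays for a given probe, while an order of brightness between probes is not an order of RNA amounts. A probe printed 10 times per array gives 10 readings of the same labelled sample, which measures the scatter of the spots and not the scatter between samples. The genes cover fuel metabolism, membrane traffic, the cytoskeleton, transcription, immunity and several tissue-restricted programmes. None of the 53 marker genes for brown, white and other cell types that were looked for is named by the files, so the tissue of origin was not checked against markers here.

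Intensities below are background-subtracted scanner units, averaged over the spots of a probe on the log scale. Log2 intensities are quantile-normalized between the 6 arrays, and a log2 fold change is sEV-BAT minus sEV-WAT. Before normalization the sEV-BAT arrays were brighter, with a median probe intensity of 81.2 to 92.1 against 57.1 to 58.5 on the sEV-WAT arrays. The 39 probes had medians of 79.1 to 84.3 and 45.8 to 48.7. sEV-BAT 1 lay on the same slide as the 3 sEV-WAT arrays, and the slide of sEV-BAT 2 and sEV-BAT 3 held no sEV-WAT array. The recorded scan date of sEV-WAT 2 differed from that of the other arrays. No spot of these probes was saturated, and precision was limited by there being 3 arrays a group.

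On detection, 37 of the 39 probes were well above background on each of the sEV-BAT arrays, against 32, 31 and 33 on the sEV-WAT arrays. A probe was counted when more than 50% of its spots carried the scanner's flag for a signal well above background. That came to 37 ± 0 probes for sEV-BAT and 32 ± 1 for sEV-WAT (SD, n = 3 each), a difference of 5 probes, and the groups did not overlap (p = 0.1 by a two-sided exact permutation test, which cannot go lower with 3 arrays a group). The same held for the array as a whole, where 90.0% to 93.4% of all probes were well above background in sEV-BAT and 84.8% to 86.4% in sEV-WAT. The dimmer scans of sEV-WAT move with this count, and their part in it was not tested. With the scanner's less strict flag for a positive and significant signal the difference was 1.67 probes.

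31 probes were well above background on all 6 arrays. Kcnn2, which encodes a calcium-activated potassium channel of neurons, and Mbp, which encodes myelin basic protein, were well above background on none. Kcnn2 had intensities of 4.98, 3.33 and 6.25 in sEV-BAT and of 2.00, 2.32 and 1.82 in sEV-WAT. Mbp had 5.93, 6.41 and 6.56 in sEV-BAT and 1.81, 1.91 and 2.44 in sEV-WAT. All of these values lie near the floor of the scan, and neither probe was tested between the groups.

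The remaining 6 probes were detected on every sEV-BAT array but on 0 or 1 sEV-WAT arrays. Bambi, Trp53rka and the unnamed ENSMUST00000133268.8 were well above background on no sEV-WAT array. Bambi, a decoy receptor that dampens TGF-beta signalling, had intensities of 14.7, 13.6 and 18.0 in sEV-BAT and of 6.37, 5.65 and 6.20 in sEV-WAT. After normalization the fitted fold of sEV-BAT over sEV-WAT was 1.22. Each sEV-WAT value was then raised, where lower, to a bound, the dimmest signal that counted as well above background on that array. The fold was then at least 1.08, which was not tested. For ENSMUST00000133268.8 no sEV-WAT value had to be raised, and the fitted fold was 1.38. Its intensities were 22.8, 15.0 and 21.6 in sEV-BAT and 7.92, 5.65 and 8.36 in sEV-WAT. Both probes entered the test only through their sEV-BAT arrays, so no p-value is given for either. Their log2 fold changes depended on the background correction and scaling. With normexp the log2 fold changes were 0.02 for Bambi and 0.07 for ENSMUST00000133268.8. With the 75th percentile subtracted they were 0.85 and 0.95, and without normalization they were 1.34 and 1.43.

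Trp53rka encodes a kinase of the complex that modifies transfer RNAs, and it has a close copy in the mouse genome, so binding of both transcripts to the probe is uncertain and was not tested. Its intensity was 13.5, 10.5 and 13.7 in sEV-BAT and 5.15, 7.13 and 6.60 in sEV-WAT. No fold against raised sEV-WAT values is given because its mean normalized signal in sEV-BAT lay below that bound. The log2 fold changes of Trp53rka listed at the end for other settings differ in direction. They rest on sEV-WAT signals not well above background and are not a result about this gene. Nup50, a nuclear pore protein, Dnajc11, a mitochondrial chaperone-like protein of the inner membrane organizing complex, and Gabrg1, a subunit of the neuronal GABA-A receptor, were each well above background on 1 sEV-WAT array. Nup50, Dnajc11 and Gabrg1 would not have entered the test without their sEV-BAT arrays, so no p-value is given for them. Nup50 had normalized log2 intensities of 3.90, 4.02 and 3.92 in sEV-BAT and 3.26, 3.39 and 3.66 in sEV-WAT. Those groups did not overlap, with a log2 fold change of 0.51 (standard error 0.13). Dnajc11 and Gabrg1 overlapped between the groups, with log2 fold changes of 0.12 ± 0.28 and 0.02 ± 0.30 (standard error, n = 3 per group).

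The 10 spots show how far the low values can be trusted. The standard deviation of log2 intensity between spots of a probe on an array had a median of 0.0889 over all probes and arrays, with 80 of 2340 spots left out as outliers by the scanner's flags. It was 0.0763 for the 31 probes well above background throughout and 0.375 for the other 8. The extreme was Gabrg1 on sEV-WAT 1, whose spots ran from 1.56 to 10.1 with a standard deviation of 1.05. For Gm9789, the brightest probe, the spots on sEV-BAT 2 ran from 18729 to 21817. The standard deviation between arrays of a group had a median of 0.190.

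By rank within an array, the 39 probes spread over the whole range of the 60823, from the 3.68th percentile (Kcnn2, mean of 6 arrays) to the 94.6th (Gm9789), with a median at the 49.2th. The 5 brightest were Gm9789, Duox1, Olfr166, Lhx1 and Olfr1307. Duox1 encodes an oxidase that makes hydrogen peroxide in airway and thyroid epithelium, Olfr166 and Olfr1307 encode olfactory receptors, Lhx1 is a LIM homeobox factor of the embryo and nervous system, and Gm9789 is a predicted gene. Actb, which encodes the beta-actin of the cytoskeleton and is abundant in nearly all cells, gave a dim signal at the 25.0th percentile. Such ranks are a property of the probes as well as of the RNA, and which transcripts bound to a probe was not tested, since the probe sequences were not analysed here.

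37 probes passed the filter on dim signals, which asks for 3 or more arrays well above background. Bambi, ENSMUST00000133268.8 and Trp53rka passed it through their sEV-BAT arrays alone and stay in the counts below. Nup50, Dnajc11 and Gabrg1 would not have passed it without their sEV-BAT arrays and stay in as well. The groups of all 37 were compared in a limma fit over all 54443 probes that passed. At the study's thresholds, a fold change of at least 2 and an unadjusted p of at most 0.05, 1 of the 37 (Gm9789, higher in sEV-BAT) was called, which is 2.70% of them. The same thresholds called 2.27% of all probes tested in either direction and 1.11% as higher. At an adjusted p of at most 0.05, 7 of the 37 were called (18.9%), against 7.61% of all probes. Of these, 5 were higher in sEV-BAT (13.5% against 2.79%) and 2 were lower (5.41% against 4.81%). The groups did not overlap, with sEV-BAT higher, at 13 probes (35.1%, against 14.5% of all probes). The 13 include Bambi, ENSMUST00000133268.8 and Nup50. With sEV-BAT lower they did not overlap at 6 probes (16.2% against 21.8%). Over the 37 probes the median log2 fold change was 0.19, against -0.02 over all probes tested. With the 75th percentile of each array subtracted in place of quantile normalization, which moved the median of all probes to 0.13, the adjusted calls were 6 higher and 0 lower (22 of the 37 at an unadjusted limma p of at most 0.05), against 6.63% of all probes called. Without normalization, where that median was 0.62, they were 30 higher and 0 lower, against 65.3% of all probes called. At an unadjusted limma p of at most 0.05 in the main fit, 12 of the 37 were higher and 4 lower. Over all 54443 probes, 6245 were higher and 9454 lower at that p. Under other scalings the share over all probes at an unadjusted p was not counted.

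The number of adjusted calls depended on the arrays and on the fit, for these probes as for the whole array. Leaving out sEV-BAT 3, sEV-WAT 1, sEV-WAT 2 or sEV-WAT 3 left 0 calls among them and 0 among all probes tested, with 11, 14, 11 and 11 of these probes at an unadjusted limma p of at most 0.05. Over the 6 fits that each left out 1 array, the log2 fold change ran from 0.91 to 1.14 for Gm9789 and from 0.74 to 0.93 for Tm9sf1. Others moved more, with Uhrf1bp1l between 0.40 and 1.22 and Rps4l between 0.54 and 1.08. Without sEV-BAT 1 there were 8 calls, against 3.84% of all probes, and without sEV-BAT 2 there were 5, against 9.66%. Gm9789, Tm9sf1 and Olfr1307 passed in both of those fits. With slide as a block, which sets sEV-BAT 1 against the sEV-WAT arrays of its own slide, 0 of these probes and 0 of all probes were called, and 9 of these had an unadjusted p of at most 0.05. The methods' t-test with Benjamini-Hochberg adjustment called 0 of these and 0.114% of all probes. Before adjustment 16 of these passed it at a p of at most 0.05. The share of all probes at an unadjusted p was not counted for these fits. The unadjusted counts are therefore not a result about these probes.

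Gm9789, a predicted protein-coding gene, showed the highest fold change and the brightest signal. Its intensity was 13906, 20152 and 18000 in sEV-BAT and 7000, 5153 and 4441 in sEV-WAT. All sEV-BAT arrays were well above all sEV-WAT arrays, and the lowest sEV-BAT value belonged to the array that shared its slide with sEV-WAT. After normalization the log2 intensity was 13.74 ± 0.23 (SD, n = 3) and 12.72 ± 0.22 (SD, n = 3), a log2 fold change of 1.02 (standard error 0.17, 95% interval 0.61 to 1.43; limma, adjusted p = 0.0355), which is 2.03-fold. On slide 1 alone the difference was 0.77. It stood just past the fold threshold and was 0.997, 0.91 and 0.92 without sEV-BAT 2, sEV-BAT 3 and sEV-WAT 3, each below a fold change of 2.

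Tm9sf1, a multi-pass membrane protein of the endosomal and autophagic system, showed the next largest increase. The intensity was 3681, 5282 and 4445 in sEV-BAT and 2114, 1584 and 1402 in sEV-WAT. The order of the arrays was that of Gm9789, with sEV-BAT 2 highest and sEV-WAT 3 lowest. Its log2 intensity was 11.80 ± 0.20 (SD, n = 3) against 10.98 ± 0.18 (SD, n = 3), and the log2 fold change was 0.82 (standard error 0.15; limma, adjusted p = 0.0382). On slide 1 alone it was 0.59. The other probes of membrane traffic did not pass the adjusted threshold. Anxa8, an annexin that binds phospholipids with calcium, was 0.45 higher on the log2 scale with groups that did not overlap (limma, adjusted p = 0.130), and Uhrf1bp1l is described below.

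Duox1 and Olfr1307 passed the adjusted threshold as well. Duox1 had intensities of 6547, 9584 and 8044 in sEV-BAT and 3916, 3138 and 2839 in sEV-WAT, and a log2 fold change of 0.65 (standard error 0.13; limma, adjusted p = 0.0447). Olfr1307 had 3814, 5079 and 4208 against 2192, 1866 and 1688, and a log2 fold change of 0.59 (standard error 0.10; limma, adjusted p = 0.0371). The groups did not overlap for either probe, and the slide 1 differences were 0.42 and 0.45. The other olfactory receptor probe, Olfr166, gave log2 intensities of 12.18, 12.13 and 12.19 in sEV-BAT and 12.36, 12.23 and 12.14 in sEV-WAT. Those overlapped, with a log2 fold change of -0.07 and a 95% interval of -0.30 to 0.16.

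The unnamed ENSMUST00000232505.1 was the fifth increase past the adjusted threshold. It had intensities of 112, 123 and 118 in sEV-BAT and 60.6, 51.7 and 51.6 in sEV-WAT, and the 3 sEV-BAT arrays were close together. Its log2 intensity was 6.60 ± 0.13 (SD, n = 3) against 6.06 ± 0.13 (SD, n = 3), a log2 fold change of 0.54 (standard error 0.11; limma, adjusted p = 0.0471). With normexp background correction this was 0.30, and on slide 1 alone it was 0.44. In each of the fits that left out 1 array its adjusted limma p was above 0.05, from 0.0597 to 0.162.

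Actb was lower in sEV-BAT at the adjusted threshold. It matters beyond its rank because actin was the reference gene of the study's qPCR. Its normalized log2 intensity was 3.85, 4.02 and 3.88 in sEV-BAT and 5.10, 4.74 and 4.61 in sEV-WAT, so that every sEV-BAT array lay below every sEV-WAT array. The log2 fold change was -0.90 (standard error 0.15, 95% interval -1.26 to -0.54; limma, adjusted p = 0.0351), and it was -0.96 on slide 1 alone. Before normalization the groups overlapped, with intensities of 19.9, 19.3 and 22.6 in sEV-BAT and 26.3, 20.2 and 20.0 in sEV-WAT. The decrease is thus relative to the other probes, whose median log2 difference without normalization was 0.62 in favour of sEV-BAT. Without normalization Actb differed by -0.10, or -0.71 once that median is subtracted, and with normexp background correction it differed by -0.26. Its spots on sEV-BAT 1 ran from 16.4 to 29.5. Actin genes share much of their sequence, and binding of related transcripts to this probe was not tested.

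Of the 5 genes of fuel metabolism and mitochondria, 4 had a higher mean in sEV-BAT, as did 24 of the 37 probes and 26052 of all 54443. The 4 include Dnajc11, which would not have entered the test without its sEV-BAT arrays. At the adjusted threshold 0 of the 5 passed. Pex11a, which drives the division of peroxisomes, came closest. It had log2 intensities of 10.49, 10.41 and 10.26 in sEV-BAT and 10.73, 11.06 and 11.07 in sEV-WAT, without overlap, and a log2 fold change of -0.57 (standard error 0.13; limma, adjusted p = 0.0533). Its intensity before normalization was almost the same in both groups, with means of 1626 ± 204 (SD, n = 3) for sEV-BAT and 1634 ± 70.0 (SD, n = 3) for sEV-WAT. With a limma variance that follows intensity the adjusted p was 0.0315.

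Gamt, the enzyme of the last step of creatine synthesis, showed the tightest arrays. Its log2 intensity was 10.56 ± 0.03 (SD, n = 3) for sEV-BAT and 10.38 ± 0.03 (SD, n = 3) for sEV-WAT, without overlap, a log2 fold change of 0.19 with a 95% interval of -0.01 to 0.38 (limma, adjusted p = 0.186). Cpt1a, which admits long-chain fatty acids to mitochondria and limits the rate of their oxidation, had intensities of 71.9, 101 and 103 in sEV-BAT and 48.7, 44.6 and 42.9 in sEV-WAT. Gpi1, an enzyme of glycolysis, had 112, 214 and 220 against 89.6, 97.2 and 92.4. Both were higher on sEV-BAT 2 and sEV-BAT 3 than on any other array, while after normalization sEV-BAT 1 lay within the sEV-WAT range for Cpt1a and below it for Gpi1. Their log2 fold changes were 0.40 ± 0.18 and 0.37 ± 0.29 (standard error, n = 3 per group).

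That split among the sEV-BAT arrays recurred at 7 of the 37 probes (18.9%), where sEV-BAT 2 and sEV-BAT 3 lay above every sEV-WAT array and sEV-BAT 1 did not, against 4.76% of all probes tested. It is a split of the normalized values, seen at 3 probes with the 75th percentile subtracted and at 0 without normalization, where sEV-BAT 1 too lay above sEV-WAT. The probes were Cpt1a, Gpi1, Carhsp1, Rps4l, Uhrf1bp1l, Lhx1 and AK004226, and the pattern was noticed in the values and not tested. Before normalization AK004226 had intensities of 33.8, 93.7 and 74.5 in sEV-BAT and 29.8, 30.5 and 32.0 in sEV-WAT. Its spots ran from 84.2 to 104 on sEV-BAT 2 and from 68.8 to 82.5 on sEV-BAT 3, apart from those on sEV-BAT 1, from 30.2 to 36.7, which overlapped the spots of the sEV-WAT arrays. Uhrf1bp1l, a lipid transfer protein of endosomes, had 21.3, 53.8 and 52.9 in sEV-BAT and 14.8, 13.5 and 13.6 in sEV-WAT. Carhsp1, an RNA-binding protein with a cold shock domain, had 40.1, 82.6 and 76.6 against 30.7, 32.6 and 31.2.

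Rps4l, which the gene table lists as a transcribed pseudogene related to the small-subunit ribosomal protein S4, had intensities of 35.5, 63.6 and 66.0 in sEV-BAT and 18.6, 17.1 and 22.7 in sEV-WAT. The difference between the mean of sEV-BAT 2 and sEV-BAT 3 and that of the sEV-WAT arrays was 1.07 on the log2 scale for Rps4l, 1.21 for Uhrf1bp1l and 0.81 for AK004226. On slide 1, the difference of sEV-BAT 1 from sEV-WAT was 0.09, -0.26 and -0.62. Over all 6 arrays the log2 fold changes of Rps4l and Uhrf1bp1l were 0.74 ± 0.28 and 0.72 ± 0.41 (standard error, n = 3 per group), with adjusted limma p-values of 0.151 and 0.305. Without sEV-BAT 1 they were 1.08 and 1.22. No p-value is given for that fit, because the split was noticed through the low values of the array left out. As the other slide held sEV-BAT arrays alone, a difference between slides and a difference between the sEV-BAT pools cannot be told apart.

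H2-Q7, a non-classical class I histocompatibility gene whose relatives are close in sequence, came near to the same split. Its intensity was 74.5, 129 and 125 in sEV-BAT and 41.9, 45.8 and 46.0 in sEV-WAT, and after normalization sEV-BAT 1 lay just above the sEV-WAT arrays, at 5.88 against a highest value of 5.84. The log2 fold change was 0.66 (standard error 0.25; limma, adjusted p = 0.145), and it was 0.96 without sEV-BAT 1. The fit without sEV-BAT 1 is given without a p-value, since the low value of that array drew attention to the probe. Between sEV-BAT 1 and the sEV-WAT arrays of slide 1 H2-Q7 differed by only 0.09. Mzb1, an endoplasmic reticulum chaperone of B and plasma cells, gave 7.59, 7.70 and 7.52 in sEV-BAT and 7.81, 7.67 and 7.68 in sEV-WAT. Those overlapped, with a log2 fold change of -0.12 and a 95% interval of -0.35 to 0.11.

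Among the 3 genes of transcription and the cell cycle, 0 passed the adjusted threshold. E2f1, which switches on genes of DNA replication, had log2 intensities of 5.98, 6.03 and 5.89 in sEV-BAT and 6.19, 6.49 and 6.45 in sEV-WAT. The groups did not overlap, with a log2 fold change of -0.41 (standard error 0.11; limma, adjusted p = 0.0766), or 0.18 without normalization between arrays. Taf1a, a subunit of the factor that recruits RNA polymerase I to ribosomal DNA, was 0.19 higher on the log2 scale without overlap (limma, adjusted p = 0.196). Alkbh4, a demethylase of the AlkB family, differed by -0.05, within the spread between arrays.

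Of the 12 genes known for other tissues, 10 were tested, of which Duox1 and Olfr1307 were higher at the adjusted threshold. Lhx1, whose 3 sEV-BAT arrays had intensities of 4581, 6791 and 4503, differed by 0.21 on the log2 scale from sEV-WAT, with 3553, 2812 and 2493 (95% interval -0.11 to 0.54). Hspb7, a small heat shock protein of heart and skeletal muscle, had 6.01, 5.87 and 6.01 against 5.62, 5.67 and 5.60, groups that did not overlap, and a log2 fold change of 0.34 (standard error 0.09; limma, adjusted p = 0.069). Spats1, expressed in testis, had 6.06, 6.17 and 5.73 in sEV-BAT and 6.50, 6.26 and 6.16 in sEV-WAT, which overlap. Its log2 fold change was -0.32 (standard error 0.15), or 0.27 without normalization. Chgb, a granule protein of neuroendocrine cells, and Tyr, the enzyme of melanin synthesis, differed by -0.30 ± 0.20 and -0.12 ± 0.16 (standard error, n = 3 per group), and both overlapped between the groups.

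The last 4 probes differed little between the groups. Cep41, a centrosomal protein, had a log2 fold change of 0.17 ± 0.13 and Lhfp, a tetraspan membrane protein, one of 0.05 ± 0.15 (standard error, n = 3 per group), and the groups overlapped for both. Hyal3, of the hyaluronidase family, and the unnamed ENSMUST00000115991.3 were lower on every sEV-BAT array after normalization, with log2 fold changes of -0.17 ± 0.09 and -0.14 ± 0.08 (standard error, n = 3 per group), and neither passed the adjusted threshold.

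Before normalization the picture was one of brightness. On every sEV-BAT array 35 of the 39 probes were brighter than on every sEV-WAT array, and none were dimmer. The share of all probes that did so was not counted, so this is not a result about these probes. Without normalization the median log2 difference over all probes was 0.62. The ratio of the mean intensities, sEV-BAT over sEV-WAT, ran from 0.930 (Actb) to 3.14 (Gm9789), with a median of 2.00. Actb, Pex11a and E2f1 had low ratios, at 0.930, 0.995 and 1.13. Their lower normalized values are therefore signals that stayed nearly level while most of the array was brighter in sEV-BAT. sEV-BAT 1, on the slide of sEV-WAT, had a median intensity of 88.7 over all probes, between those of sEV-BAT 2 and sEV-BAT 3. The source of the brightness was not tested.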

How the data were processed

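Total RNA of 3 sEV-BAT and 3 sEV-WAT samples was labelled with Cy3 by random priming and hybridized to 6 one-colour arrays. Per the file headers, the authors extracted spots with Agilent Feature Extraction 11.0.1.1, and the deposited intensity of a spot is background-subtracted but not normalized between arrays. The deposited flags mark spots well above background, positive and significant, saturated, and outlying. A deposited table of log2 values, quantile-normalized by the authors in GeneSpring GX 12.1, holds none of these probes and was not used. Coordinates are not given, since the array design names the build mm9 and the gene table is of GRCm38.

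Here, outlier spots were left out, log2 intensities were averaged per probe and array, and arrays were quantile-normalized over all 60823 probes. A probe entered the test when 3 or more of the 6 arrays had it well above background, and groups were compared with limma 3.58.1 (R 4.3.3), with Benjamini-Hochberg adjustment over 54443 probes. The code was tested on simulated data. Accessions without versions were matched to RefSeq genes of GRCm38 for 35 of 39 probes. Values per array are given for probes past a threshold, the 5 largest changes each way, the 5 brightest and 5 dimmest, and those below background on any array, with others chosen after their values were seen. The results of 1 probe are counted in the totals and not reported here. The members and lists were chosen with earlier results of these data known. Labels do not say whether replicates are independent beyond their pools, so p-values measure the spread between these arrays. The labels give both groups the numbers 1 to 3. Alternatives changed normalization, background correction, filter, test, block, outlier handling and spot average, and left out each array in turn.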

Additional observations from a re-analysis of the deposited data

How the results depend on the processing

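The number of probes at the study's thresholds was 1. It was 17 without normalization between arrays, 2 with the 75th percentile subtracted, 0 with slide as a block and 0 to 3 with each array left out (3 without sEV-BAT 1, 0 without sEV-BAT 2, sEV-BAT 3 or sEV-WAT 3). At these thresholds the share of all probes was counted in the main fit alone (2.27%). Without normalization the median log2 difference over all probes was 0.62. The number at the adjusted threshold was 7. It was 30 without normalization (65.3% of all probes), 2 with no filter on dim probes (2.45%), 0 with the methods' t-test (0.114%), 0 with slide as a block (0%) and 0 to 8 with each array left out (0% to 9.66%). With the replicate number as a block it was 0, as over all probes. At an unadjusted limma p of at most 0.05 it was 14, without a count over all probes. Across probes, the correlation of same-numbered arrays after removal of the group means was -0.25, -0.09 and 0.22. These values cannot decide whether same-numbered pools share mice, since sEV-BAT 1 lay on another slide than sEV-BAT 2 and sEV-BAT 3. The groups did not overlap, higher in sEV-BAT, at 13 probes, and did so at 33 without normalization and at 21 with the 75th percentile. Lower in sEV-BAT, they did not overlap at 6 probes, at 0 without normalization and at 6 to 10 with each array left out (10 without sEV-BAT 2). The split of sEV-BAT 2 and 3 from sEV-BAT 1 was seen at 7 probes, at 0 without normalization and at 3 with the 75th percentile. For groups without overlap and for the split, too, the share of all probes was counted in the main fit alone. The difference in probes well above background was 5. It was 1.67 with the positive and significant flag and 1.33 where a single flagged spot was enough. The cause of these shifts was not tested. A fit without 1 array has fewer samples. All other alternatives stayed within 1.5 times these counts.

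Of 325 fold changes of 20 named probes under the alternatives, 309 kept their direction, and 13 probes kept it throughout. Without normalization, where the median over all probes was 0.62, E2f1, Olfr166, Spats1 and Trp53rka turned to 0.18, 0.54, 0.27 and 1.0003. With the 75th percentile, where that median was 0.13, Olfr166 and Trp53rka turned to 0.055 and 0.51. With slide as a block Gabrg1, Trp53rka and Uhrf1bp1l turned to -0.18, 0.036 and -0.26. Gabrg1 was -0.0056 with normexp and -0.0058 with the median of the spots. With each array left out, Gabrg1 ran from -0.24 to 0.25, Dnajc11 from -0.051 to 0.39 and Trp53rka from -0.17 to 0.011, the last without a value when a sEV-BAT array was left out, as it then failed the filter. None of the probes that turned passed the adjusted threshold in all 6 arrays. Normexp used median intensities, as the files have no mean spot signal. Low signal limits the 8 probes that were not well above background on all arrays.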
